A study of Homo sapiens with 2 samples.

Results

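The miR-320 family comprises miR-320a, miR-320b, miR-320c, miR-320d and miR-320e, and it was examined here in small RNA libraries of FaDu cells (written FadU in the labels), which derive from a squamous carcinoma of the hypopharynx. All names whose base is one of these 5 were taken from both deposited tables, whatever their arm suffix. This gave 5 of 2038 miRNA names, each listed once and without an arm suffix. The sphere library came from cells expanded in tumour sphere medium, which was DMEM-F12 with N2 Plus Supplement, bFGF and EGF at 10 ng/ml each and 1% penicillin-streptomycine. The labels call them sphere-derived cancer stem cells. The parental library came from cells of the same line in RPMI-1640 with 10% FBS and 1% penicillin-streptomycine. No genetic change or drug is stated for either, and medium, serum and growth form differ together between them. Each group is a single library, so values lack replicates and the conditions cannot be tested against each other. No p-values are reported.

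Most miRNAs are cut out of a longer transcript by the nuclear enzyme Drosha, exported by Exportin-5 and trimmed by Dicer. The precursor of miR-320a is a known exception in human and mouse cells. Transcription yields it directly as a short capped hairpin, which leaves the nucleus through Exportin-1 and needs Dicer but not Drosha, and only its 3′ arm accumulates. Other human miR-320 genes give the same or nearly the same mature RNA from separate hairpins. The files hold levels of mature miRNAs only, so the route by which any member was made in these cells was not measured.

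RefSeq (GRCh38.p14) gave a mature sequence for 4 of the 5 members, miR-320b to miR-320e. They are shown because their likeness bears on every value that follows. They are written 5′ to 3′ with the seed, bases 2 to 8, in capitals. miR-4429 is added as the only other mature miRNA of that table with the seed of miR-320b, miR-320c and miR-320d.
miR-320b: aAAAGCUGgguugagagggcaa
miR-320c: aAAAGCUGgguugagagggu
miR-320d: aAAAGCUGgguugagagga
miR-320e: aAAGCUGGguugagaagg
miR-4429: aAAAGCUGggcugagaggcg

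miR-320b, miR-320c and miR-320d have the same first 18 bases, and miR-320b and miR-320c the same first 19. A read that ends within those bases cannot be assigned to one of them. miR-320e starts 1 base later. Its first 15 bases equal those of miR-320b from base 2 on, so its seed differs, and it was the only one of 2370 mature miRNAs in the table with that seed. miR-4429 departs from miR-320b, miR-320c and miR-320d after base 10. miR-320a had no sequence in the table, so the bases it shares with the other members were not compared. The mature lengths were 22 nt for miR-320b, 20 for miR-320c, 19 for miR-320d and 18 for miR-320e. RPKM divides by length, so at equal RPKM the shorter members rest on fewer reads.

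The mature RNA also does not name its gene. miR-320b, miR-320c and miR-320d each come from 2 genes, and miR-320e from 1. The pair for miR-320b is shown as an example, with the mature part in capitals, since the mature part is identical while the rest of the hairpin differs.
MIR320B1: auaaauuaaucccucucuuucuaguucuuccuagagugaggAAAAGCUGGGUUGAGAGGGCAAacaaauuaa
MIR320B2: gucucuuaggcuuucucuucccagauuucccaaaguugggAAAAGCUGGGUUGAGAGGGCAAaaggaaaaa

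In GRCh38.p14 the MIR320B1 hairpin lies at chr1:116671746-116671817 on the plus strand and overlaps no gene other than miRNA genes in GENCODE. MIR320B2 lies at chr1:224257040-224257110 on the minus strand, in an intron of NVL on the same strand. The hairpins of miR-320c, MIR320C1 (chr18:21683518-21683589) and MIR320C2 (chr18:24321675-24321746), are both on the plus strand, inside introns of ABHD3 and OSBPL1A, which run on the opposite strand. MIR320E (chr19:46709282-46709354, minus strand) lies in an intron of PRKD2 on the same strand. MIR320D1 on chromosome 13 and MIR320D2 on chromosome X overlap no annotated gene of another kind. The deposited values give 1 number per mature name, so the contribution of each gene was not measured.

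The tables give RPKM, reads per kilobase and 1000000 reads, as computed by the authors. RPKM summed to 5509071 over the miRNAs of the sphere library and 26530004 over those of the parental library, a 4.82-fold difference in what miRNAs made up of the reads behind the values. Levels are therefore given on 2 scales, RPKM as deposited and rescaled RPKM, in which each library sums to 1000000. Taking the commonest low value as 1 read on 22 nt put about 682359 reads on miRNAs in the sphere library and 4542489 in the parental library, and the read numbers below are such estimates. A value of 0 allows up to 3 reads, which is 24.2 RPKM in spheres and 17.5 RPKM in parental cells. The 95% intervals are Clopper-Pearson intervals on estimated reads, which need not be whole numbers, so they are approximate. They take in the error of counting reads alone. Copies made by PCR repeat the same molecule, so the intervals can be too narrow even for that. All 5 squamous epithelial marker miRNAs were above 3 reads in both libraries. The liver marker miR-122-5p was listed at 0 in both. The 2 endothelial markers were above 3 reads in both, with a sum of 445 rescaled RPKM in spheres and 192 in parental cells. Of the 5 mesenchymal markers, 2 in spheres and 3 in parental cells were above 3 reads, with sums of 76.5 and 28.9. Of the 4 muscle markers, 1 was above 3 reads in each library, with a sum of 17.9 in spheres and 2.05 in parental cells. Of the 3 neural markers, miR-124-3p was at 0 in both, while miR-9-5p and miR-128 were above 3 reads in both, and the 3 summed to 658 rescaled RPKM in spheres and 660 in parental cells.

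miR-320a and miR-320b carried nearly the whole family, at almost equal levels, and both were lower in spheres. miR-320a, known as a capped-precursor miRNA, had 8163 RPKM in spheres and 68748 RPKM in parental cells. It made up 0.148% of the miRNA signal in spheres (95% interval 0.139% to 0.158%) and 0.259% in parental cells (0.254% to 0.264%). It ranked 53 among all names in spheres and 40 in parental cells.

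miR-320b, the only member of 22 nt in the RefSeq table, had 9532 RPKM in spheres and 71951 RPKM in parental cells. Its share was 0.173% in spheres (0.163% to 0.183%) and 0.271% in parental cells (0.266% to 0.276%). It was the most abundant member in both libraries, with rank 46 in spheres and 37 in parental cells, and its interval did not overlap that of miR-320a in either.

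The remaining members were far lower. miR-320c had 371 RPKM in spheres, on about 46 reads, and 1288 RPKM in parental cells, on about 221 reads. With its own length of 20 nt these become about 42 and 201 reads. miR-320c ranked 142 in spheres and 159 in parental cells, so it was the only one of the 3 better-measured members that stood higher in the order of names in spheres.

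miR-320d had 3.64 RPKM in spheres, under 1 estimated read, and 32.6 RPKM in parental cells, on about 5.6 reads. miR-320e had 5.48 RPKM in spheres and 10.1 RPKM in parental cells, which is below 3 reads in both. The order of miR-320d and miR-320e, which are neighbours at the low end, could not be told at this depth. miR-4429 was listed at 0 in spheres and at 0.393 RPKM in parental cells, under 1 read.

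**Figure D1:**
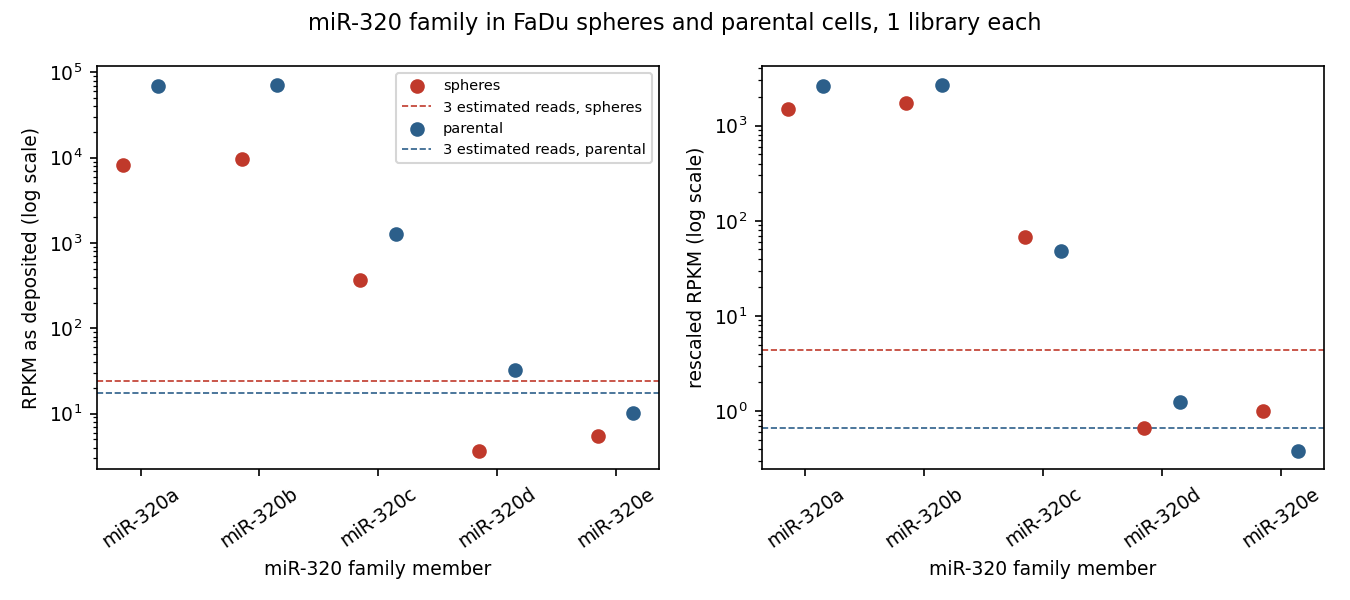
Level of each miR-320 member in the sphere library (red) and the parental library (blue), as deposited RPKM on the left and as rescaled RPKM on the right, both on log axes. Each point is 1 library and dashed lines mark 3 estimated reads; miR-320a and miR-320b lie far above them, miR-320d and miR-320e near or below.

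As a share of miRNA, the family sum was lower in spheres, at 3281 rescaled RPKM there and 5354 rescaled RPKM in parental cells. This is a log2 fold of -0.71 for spheres over parental, or 1.63-fold lower (95% interval 1.56 to 1.70). Log2 folds are those of rescaled RPKM + 0.5, which understates changes of low miRNAs, and a fold of at least 2 counted as higher or lower.

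miR-320a had 1482 rescaled RPKM in spheres and 2591 rescaled RPKM in parental cells, a log2 fold of -0.81 and 1.75-fold lower (1.64 to 1.87). miR-320b had 1730 rescaled RPKM in spheres and 2712 rescaled RPKM in parental cells, a log2 fold of -0.65 and 1.57-fold lower (1.48 to 1.67). Neither log2 fold passed the 2-fold rule on this scale. Both intervals lie below equality and above a 2-fold deficit. They compare these 2 libraries, not the conditions.

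miR-320c had 67.4 rescaled RPKM in spheres and 48.6 rescaled RPKM in parental cells, a log2 fold of 0.47. Its ratio of spheres to parental was 1.39, with an interval of 0.99 to 1.91 that includes equality. For miR-320d the ratio was 0.54, with an interval of 0.00022 to 8.03 that says nothing of a direction. No fold is given for miR-320e, which was below 3 reads in both libraries.

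The members can be set against all miRNAs measured, meaning those averaging 10 or more rescaled RPKM over the libraries. These were 269 names, among them 3 of the 5 family members, miR-320a, miR-320b and miR-320c. None of the 3 was at least 2-fold higher or lower. Over all measured miRNAs 23% were at least 2-fold higher and 19% at least 2-fold lower, and the median log2 fold was 0.02. Counted from the lowest log2 fold, miR-320a ranked 64 of 269, miR-320b ranked 71 and miR-320c 178. The lower quartile of all measured log2 folds was -0.70, between the values of miR-320a and miR-320b, and 49.1% of them were below 0, as were 2 of the 3 members.

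**Figure D2:**
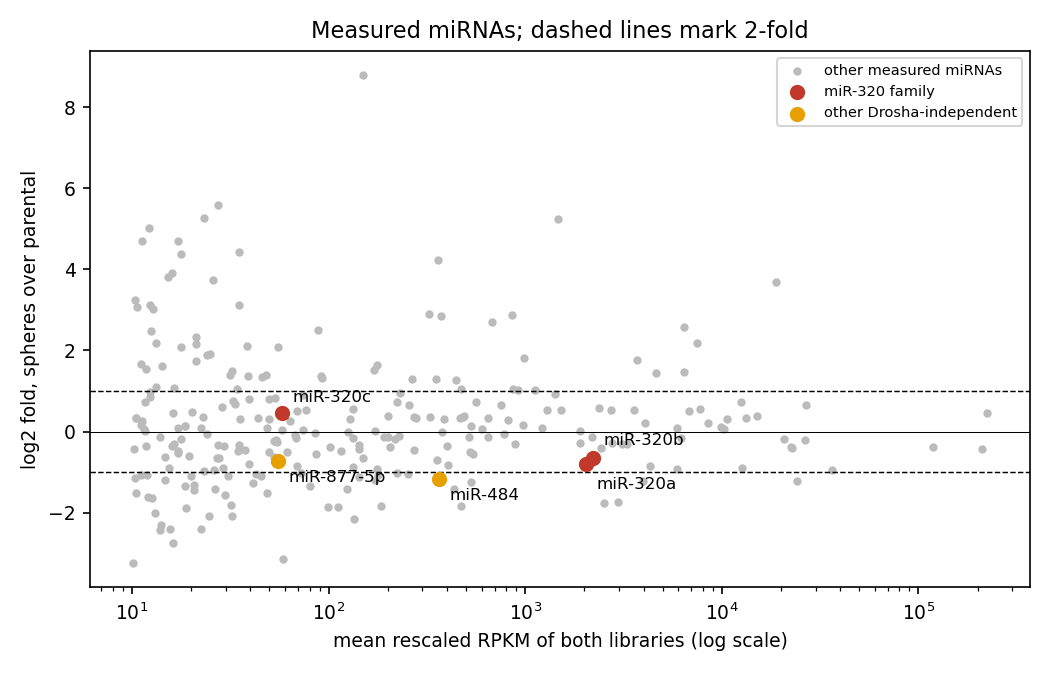
Log2 fold of spheres over parental against the mean rescaled RPKM of both libraries (log axis) for the 269 measured miRNAs, with 1 point per miRNA. miR-320a and miR-320b lie together, at means of 2036 and 2221 rescaled RPKM, just above the line of a 2-fold deficit, while miR-320c lies above 0; miR-484 is below the line.

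On the deposited scale, which is per read behind the authors' RPKM, all 3 measured members were at least 2-fold lower in spheres. miR-320a was 8.42-fold lower, miR-320b 7.55-fold and miR-320c 3.47-fold, and the family sum fell to 18075 RPKM in spheres, against 142030 RPKM in parental cells. On that scale 79.6% of all 269 passed the rule as lower and 6.32% as higher, with a median log2 fold of -2.25, so 3 of 3 members is near what the measured miRNAs did in general. The log2 folds there were -3.07 for miR-320a and -2.92 for miR-320b, below that median, and -1.79 for miR-320c, above it.

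The choice of scale decided the 2-fold call of miR-320a. Its log2 fold was -1.01 under the median of ratios and -1.13 under the upper quartile, which makes it at least 2-fold lower, while it stayed just inside 2-fold under the other miRNA-based scalings. The measured miRNAs at least 2-fold lower were 24.2% under the median of ratios and 25.3% under the upper quartile. miR-320b stayed inside 2-fold under each miRNA-based scaling tried. miR-320c had a positive log2 fold under all of these and a negative one only as deposited.

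**Figure D3:**
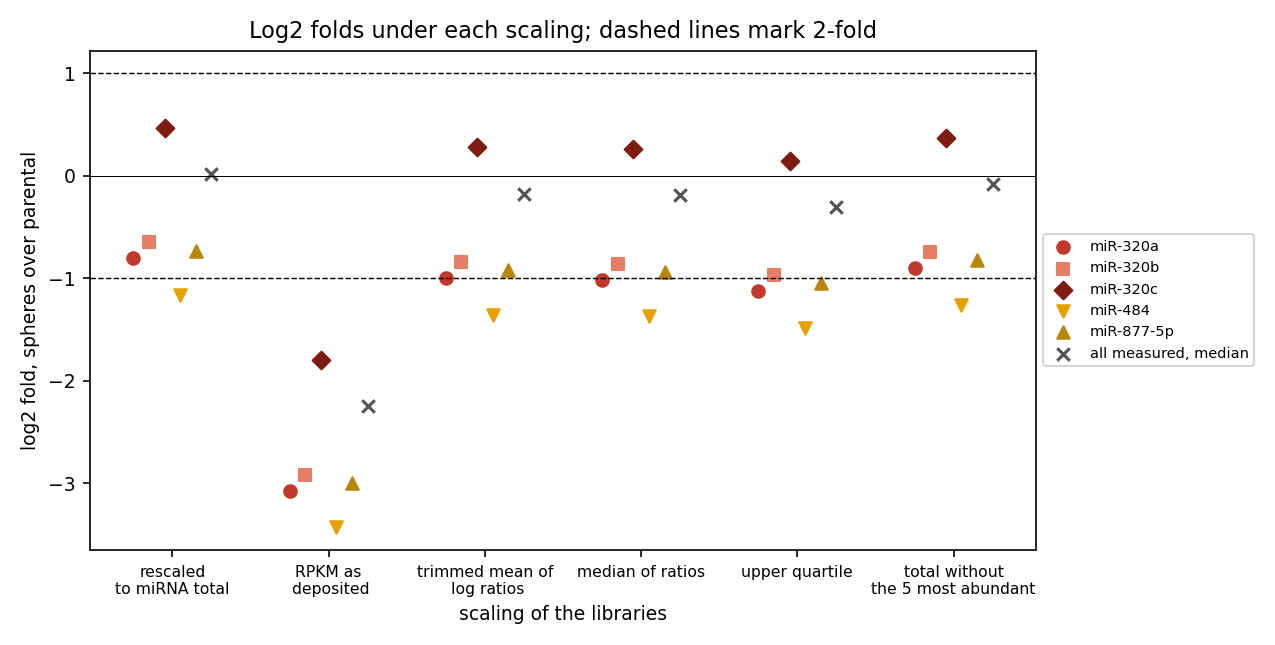
Log2 fold of spheres over parental for miR-320a, miR-320b, miR-320c, miR-484 and miR-877-5p and the median of all 269 measured miRNAs under 6 scalings of the libraries, with dashed lines at 2-fold. miR-320a and miR-320b lie below the median of all measured miRNAs and miR-320c above it. This order is the same under each scaling by construction, since a scaling shifts all log2 folds nearly alike. As deposited every point is below 0.

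The proportions within the family do not depend on the scaling. The counting intervals of miR-320a and miR-320c did not overlap between the libraries, while those of miR-320b, miR-320d and miR-320e did. miR-320c was 2.05% of the family sum in spheres (95% interval 1.51% to 2.73%) and 0.907% in parental cells (0.792% to 1.03%). Set against miR-320b, whose first 19 bases it shares, miR-320c stood at 3.89% of its level in spheres (2.83% to 5.23%) and 1.79% in parental cells (1.56% to 2.05%). The log2 fold of miR-320c exceeded that of miR-320b by 1.12 (normal approximation, 0.65 to 1.59), and by an interval of 0.63 to 1.61 with reads counted at its own length. Against miR-320a the excess was 1.28 (0.81 to 1.75).

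miR-320a made up 45.2% of the family sum in spheres (43.1% to 47.2%) and 48.4% in parental cells (47.8% to 49.0%). miR-320b made up 52.7% in spheres (50.6% to 54.8%) and 50.7% in parental cells (50.0% to 51.3%). The RPKM of miR-320b was 1.17 times that of miR-320a in spheres (1.07 to 1.27) and 1.05 times in parental cells (1.02 to 1.07). The log2 fold of miR-320a was lower than that of miR-320b by a small amount, a difference of -0.16 (-0.28 to -0.03). The shares of miR-320a did not overlap between the libraries, whereas those of miR-320b did.

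**Figure D4:**
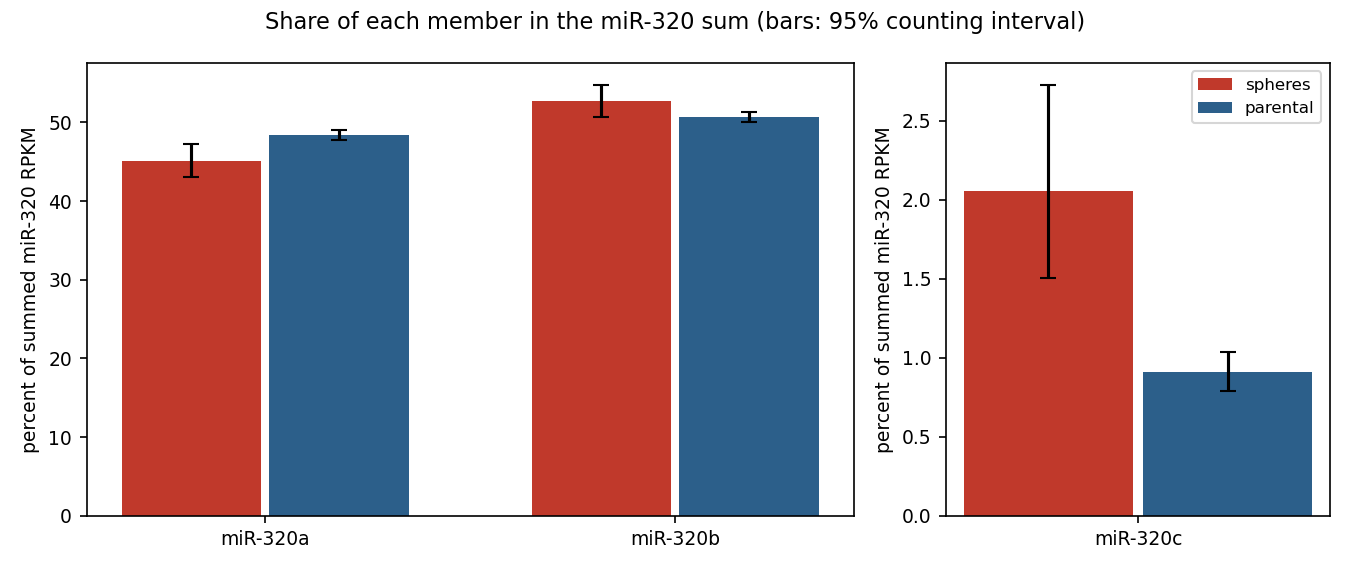
Percent of the summed miR-320 RPKM held by miR-320a and miR-320b (left) and by miR-320c (right, own axis) in the sphere library (red) and the parental library (blue), with 95% counting intervals. miR-320c took 2.05% in spheres and 0.907% in parental cells, with intervals that do not overlap.

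These proportions rest on how the authors divided reads between names that share most of their bases, which is not given in the sources used here. Under the read estimate, values below 1 read are fractions of reads. At their own lengths, miR-320d amounted to 0.389 of a read and miR-320e to 0.556 of a read in spheres. These equal 7/18 and 10/18 of a read, within a tolerance of 1e-06 read. The other 8 of the 10 values of the family did not meet that tolerance, among them those of miR-320d and miR-320e in parental cells, at 4.83 and 1.41 reads. At the read numbers of miR-320a, miR-320b and miR-320c the tolerance is finer than the rounding of the values. Their misses were larger than that rounding, from 0.00057 read (miR-320b in spheres) to 0.0226 read (miR-320a in spheres). Under the read estimate these values were therefore not multiples of 1/18 of a read. Where reads were divided among names, the members are not independent of each other, and the intervals within the family treat them as if they were. The part of this division in the different proportion of miR-320c was not tested.

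The closest relative of miR-320a by the route of its making is miR-484, whose precursor is likewise capped and made without Drosha. It has another sequence and seed (capitals, chr16:15643301-15643322 on the plus strand in GRCh38.p14), and it is shown so that its difference from the miR-320 sequences can be seen.
miR-484: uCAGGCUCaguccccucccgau

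miR-484 was lower in spheres too, with 1235 RPKM there and 13328 RPKM in parental cells. On the rescaled scale it had 224 in spheres and 502 in parental cells, a log2 fold of -1.16 and 2.24-fold lower (1.90 to 2.66). It passed the 2-fold rule under all 6 scalings, but each of the others moves log2 folds further down, so none could undo the call. The log2 fold of miR-320a lay 0.36 above that of miR-484 (0.10 to 0.61) and that of miR-320b 0.52 above it (0.26 to 0.77). In spheres miR-320a had 6.61 times the level of miR-484 (5.57 to 7.88), against 5.16 times in parental cells (4.93 to 5.40).

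Mirtrons, hairpins released by splicing, also bypass Drosha, and a list of 10 was looked up, miR-877, miR-1224 to miR-1229 and miR-1236 to miR-1238. They have 20 names in the tables, of which 7 were above 0 in spheres and 10 in parental cells, and 8 were listed at 0 in both. Only miR-877-5p was measured, with 41.4 rescaled RPKM in spheres on about 28 reads and 69.1 rescaled RPKM in parental cells on about 314 reads. It was 1.67-fold lower (1.13 to 2.54), with a log2 fold of -0.73. No other mirtron name exceeded 5.61 rescaled RPKM in spheres, the value of miR-1229-3p, which had 1.47 in parental cells. The highest of these others in parental cells was miR-1237-3p at 2.77, which was listed at 0 in spheres. The counting intervals of the sphere to parental ratio included equality for both, at 0.78 to 15.5 for miR-1229-3p and 0 to 2.27 for miR-1237-3p. Of the 2 measured names of the list with miR-484, 1 was at least 2-fold lower and none higher, beside 19% and 23% of all measured miRNAs, and their median log2 fold was -0.95. So few names do not describe a class. By contrast miR-451a, which needs Drosha but not Dicer, had 4 reads in spheres and 2 in parental cells.

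Over the 2 libraries, the miRNA outside the family closest to miR-320a was miR-151a-3p, with a distance of 0.14 in log2 rescaled RPKM. It had 1603 rescaled RPKM in spheres and 2726 in parental cells. The next were miR-93-5p at 0.29 and miR-30b-5p at 0.38, while miR-320b was at 0.23. Closest to the family sum were miR-98-5p at 0.11, miR-423-3p at 0.47 and miR-10a-5p at 0.57. With 1 library per group such likeness is a match of 2 levels and nothing more.

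Serum was in the parental medium and is not among the named components of the sphere medium, and 1 of 4 erythroid marker names, miR-486-5p, was lower in spheres as miR-320a was. Of the 4 erythroid marker names, 2 in spheres and 1 in parental cells were above 3 reads, and their sum was 212 rescaled RPKM in spheres and 742 in parental cells. miR-486-5p made up nearly all of it, at 207 in spheres and 741 in parental cells. The others were at or near 0, with both arms of miR-144 at 0 in both libraries, and miR-451a at 5.86 rescaled RPKM in spheres and 0.44 in parental cells on the few reads given above, the opposite direction. Of the 4 leukocyte marker names, 2 in spheres and 1 in parental cells were above 3 reads. Their sum was 28.3 rescaled RPKM in spheres and 3.34 in parental cells. Higher in spheres were miR-150-5p (13.2 in spheres, 0 in parental cells), miR-142-5p (12.3 and 3.25) and miR-142-3p (2.80 and 0, under 3 reads). miR-223-3p was at 0 in spheres and below 1 read in parental cells. The part of these markers in the levels of the miR-320 family was not tested.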

How the data were processed

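Small RNA of 2 FaDu cultures, spheres and parental cells, was sequenced, each as a single library. Per the labels' protocols, TruSeq small RNA libraries were prepared with 1 µg of RNA and fractionated by size, and the submitters' processing notes name hg19. Not given in the sources used here are the aligner, counting tool, miRNA release and the treatment of reads matching several names. The authors deposited 1 RPKM value per mature name, with no counts, so no count model was used.

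Each column was rescaled to 1000000, and folds were taken on rescaled RPKM + 0.5. Deposited-scale log2 folds use RPKM + 0.5. Reads were estimated as RPKM over the commonest value below 10 RPKM (8.07 in spheres, 5.84 in parental cells), taken as 1 read on 22 nt. The files do not show whether that is the true step. Alternatives were the deposited scale, a trimmed mean of log ratios, median of ratios, upper quartile, the total without the 5 most abundant miRNAs, pseudocounts of 0.1 and 5, filters, and reads at own length. miR-320a was counted at 22 nt.

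RefSeq sequences and GENCODE genes are on GRCh38, and no coordinates were joined to the hg19 values. The members, lists and named miRNAs (all members, seed neighbours, the Drosha-independent list and the 3 nearest names) were chosen with earlier results of these data known. The 2-fold calls and the ratio interval were tested on simulated whole counts, without shared or fractional reads. The other steps were not tested in this way. Python 3.11.15, pandas 2.3.3 and scipy 1.17.1 were used.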

Additional observations from a re-analysis of the deposited data

How the results depend on the processing

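With libraries rescaled to the miRNA total, none of the 3 measured members passed 2-fold. As deposited, 3 were at least 2-fold lower, and the log2 folds were -3.07 for miR-320a, -2.92 for miR-320b, -1.79 for miR-320c and -2.97 for the family sum. This follows from construction, since the RPKM sums differ 4.82-fold. The median of ratios and the upper quartile each made 1 member lower, miR-320a, at -1.01 and -1.13, with miR-320b at -0.86 and -0.97 and the sum at -0.91 and -1.03. The trimmed mean gave -0.999, -0.84 and -0.90, just inside 2-fold for miR-320a. Leaving the 5 most abundant miRNAs of each library out of both totals gave -0.90, -0.74 and -0.80. The sum without miR-320a was at -0.62. Of all measured miRNAs 62 were higher and 51 lower, against 17 and 214 as deposited, 193 and 180 with no filter, and 23 and 18 at a mean of at least 100, where fewer or more names are counted by construction. The median of the Drosha-independent list, 2 names at -0.95, was -3.22 as deposited and -0.62 over all names above 0. The miRNA-based scalings moved log2 folds by -0.10 to -0.32, and neither pseudocount moved those of miR-320a, miR-320b, miR-320c or the sum beyond their counting intervals. Depth limits miR-320d, miR-320e and all mirtrons other than miR-877-5p. No paired analysis was possible because each group is a single library, and no replicate could be left out for the same reason.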
